A study of Mus musculus with 28 samples.

Results

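The neuroblasts described here are 9 single cells of the mouse subventricular zone that were typed as *Dlx2*+/*Dcx*+, 4 of them from mice of 24 months and 5 from mice of 1 month. They were chosen by their labels alone, out of 22 single cells and 28 samples in the series. All mice were C57BL/6, and neither an engineered allele nor a treatment is given for either age. The tissue next to the striatum was digested with papain, cells were sorted by size and complexity and picked one at a time, and full-length cDNA was made with Smart-seq2, a method that amplifies the polyadenylated RNA of a single cell. The cDNA was screened by quantitative PCR for marker genes such as *Dlx2* and *Dcx*. In the paper the sequenced cells were then grouped by their transcriptomes, and the groups were typed by signature genes. The labels do not say which animal, or how many animals, a cell came from. The cells of one age were therefore treated as a single sample: each cell's value is given, the ages are set side by side, and no p-value is given for any difference between these cells.

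Neuroblasts are the committed, still dividing daughters of the stem cells of the subventricular zone. They migrate in chains along the rostral migratory stream and become inhibitory interneurons of the olfactory bulb. DLX2 is a homeobox transcription factor that directs this interneuron fate, and DCX (doublecortin) is a protein that binds microtubules in migrating neurons. A dividing cell first licenses and copies its DNA with the MCM helicase, PCNA and the DNA polymerases. It then makes the kinases, cyclins, motors and kinetochore proteins that build the spindle and pull the chromosomes apart.

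Cells were screened for marker genes, among them *Dlx2* and *Dcx*, by quantitative PCR before sequencing. The primers and probes that the study lists for quantitative PCR of these genes are shown here. They lie in GRCm38 on the minus strand of *Dlx2* (chr2:71543408-71546754) and of *Dcx* (chrX:143855842-143933311). The *Dlx2* forward primer joins the end of exon 2 (chr2:71545384-71545400) to the first base of exon 3, and the probe (chr2:71544891-71544912) and reverse primer (chr2:71544868-71544886) lie in the coding part of exon 3. The *Dcx* forward primer (chrX:143870667-143870688) and probe (chrX:143870631-143870655) lie in coding exon 6, the reverse primer (chrX:143863545-143863565) lies in exon 7 and is not wholly coding, and all 4 annotated transcripts match the 3 oligos. The letters are written 5′ to 3′ in lower case.
Dlx2 forward primer: gcctcacccaaactcagg
Dlx2 probe: ttccagaaccgccgatccaagt
Dlx2 reverse primer: gccgcttttccacatcttc
Dcx forward primer: cagtcagctctcaacacctaag
Dcx probe: tcctatctctacacccacaagccct
Dcx reverse primer: catctttcacatggaatcgcc

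Values are FPKM (fragments for each kilobase of a gene's transcript, relative to all mapped fragments in that cell), and within each age they are given in the order of the cell numbers, cells 1 to 4 for 24 months and cells 1 to 5 for 1 month. The numbers only name cells. *Dlx2* was 649, 315, 1245 and 524 FPKM in the 24-month cells and 460.1, 799.7, 269.6, 730.3 and 1916 FPKM in the 1-month cells. *Dcx* was 153, 15.8, 267 and 152 FPKM at 24 months and 60.03, 24.6, 126, 186 and 50.8 FPKM at 1 month. Both genes were thus present in every cell, as the typing requires, and the ages overlapped. *Sp9*, a transcription factor of the same interneuron lineage, was 417, 99.2, 229 and 103 FPKM at 24 months and 116, 79.1, 53.1, 204 and 411 FPKM at 1 month. The paper names *Sp9* among the genes by which it took this group of cells for neuroblasts, so it does not stand apart from the typing. In the other 2 kinds of cell of the series, which the paper typed as lacking both genes, *Dcx* reached at most 0.362 FPKM in *Prom1*+ cells and 0.516 FPKM in *Gfap*+ cells. *Dlx2* reached at most 1.74 and 2.79 FPKM in them. These low values follow from the typing and are no separate check of the label.

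The estimated depth, read from the steps between low values, was 1882829 to 2479516 fragments in the 24-month cells and 2329133 to 3079335 in the 1-month cells. The 24-month cells had 5081 to 5304 genes above 1 FPKM and the 1-month cells 5278 to 6286. The mitochondrial genome took 18.1% to 19.1% of the summed FPKM at 24 months and 18.6% to 27.5% at 1 month. Its gene *mt-Ts1* was the highest gene in every cell and alone took 7.47% to 14.4% at 24 months and 10.997% to 16.5% at 1 month. Its protein-coding genes summed to only 4458 to 9375 FPKM at 24 months and 7276 to 12560 FPKM at 1 month. The percentages are therefore not shares of mitochondrial messenger RNA, and no age difference in cell quality was read from them. Of 309 genes above 50 FPKM in at least 19 of the 22 cells, 4, 2, 2 and 1 were at 0 in the 24-month cells and 0 in every 1-month cell. A 0 can therefore be a failed capture, and such genes are called listed at 0. The part that depth or capture plays in the differences below was not tested. *Xist*, the RNA of the silenced X chromosome, was 31.1 to 126 FPKM at 24 months and 43.6 to 145 FPKM at 1 month, and *Tsix*, its antisense partner, which reads without strand do not tell apart from it, reached 14.4 and 15.3 FPKM in 1-month cells 1 and 5. Of 4 genes on the Y chromosome, *Uty* was the highest at 1.65 FPKM.

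A gene was kept when it was above 1 FPKM in 3 or more of the 9 cells, which held for 7466 of the 37974 genes in the table (19.7%). Only 1163 were above 1 FPKM in all 9 cells. Another 1395 passed with exactly 3 cells, and 1858 genes with exactly 2 cells did not pass. Of the genes kept, 382 had no 24-month cell and 55 no 1-month cell above 1 FPKM. These genes passed through one age alone and had to differ. Correlations of log2(FPKM + 1) over the genes kept were 0.36 to 0.41 between 24-month cells, 0.38 to 0.45 between 1-month cells and 0.35 to 0.40 between cells of different ages, so cells of one age were little more alike than cells of different ages. The most abundant protein-coding genes were common to all cells: *Actb*, the cytoskeletal actin, had a mean log2(FPKM + 1) of 14.08 at 24 months and 14.16 at 1 month.

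An age difference is the mean log2(FPKM + 1) of the 24-month cells minus that of the 1-month cells, and 1 unit is a doubling for genes well above 1 FPKM. Of the 7466 genes kept, 2413 (32.3%) were lower and 1429 (19.1%) higher at 24 months by more than 1 unit. Genes that were lower made up 62.8% of those past 1 unit. That split depended on the scaling: after quantile normalization it was 1913 lower and 1967 higher (49.3% lower), and the median difference of all genes moved from -0.29 to 0.07. Without overlap, that is with every 24-month cell below every 1-month cell, there were 117 genes (1.57%), and with every 24-month cell above every 1-month cell there were 60 (0.804%). This split turned round as well, to 79 lower and 125 higher after quantile normalization. The percentages of the FPKM scale are the background against which each gene list below is read.

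Of the lists with at least 8 genes kept, 5 cell cycle lists stood furthest from that background: DNA replication, mitosis, kinetochore, S phase and G2/M. DNA replication genes and mitotic genes lay on opposite sides of it. The lists of G1 cyclins and of arrest genes, given further below, did not stand as far from it. Of 40 kept DNA replication genes, 24 (60%) were higher and 5 (12.5%) lower at 24 months by more than 1 unit, and the median difference was 1.61. Of 44 kept genes for mitotic kinases, cyclins and spindle proteins, 34 (77.3%) were lower and 4 (9.09%) higher, with a median of -3.41. Of 41 kept kinetochore and spindle checkpoint genes, 27 (65.9%) were lower and 7 (17.1%) higher, with a median of -2.42. These 3 lists share no gene. The general lists of phase markers gave the same picture: 25 of 41 S phase genes (61.0%) were higher and 3 lower, with a median of 1.35, and 46 of 54 G2/M genes (85.2%) were lower and 0 higher, with a median of -3.14. The S phase list shares 18 genes with the replication list and 1 with the kinetochore list, and the G2/M list shares 11 with the kinetochore and 20 with the mitotic list, so they are not separate evidence.

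**Figure D1:**
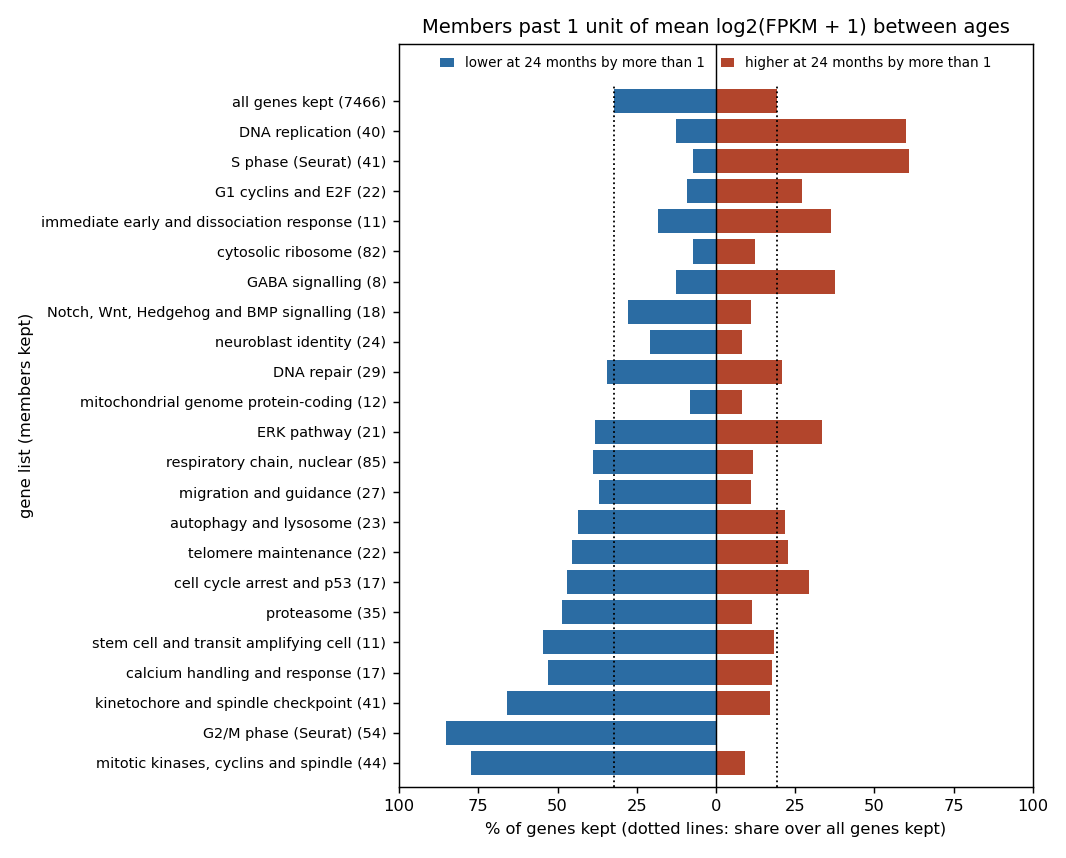
Each bar gives the percentage of a list's kept genes that differed by more than 1 unit of mean log2(FPKM + 1), lower at 24 months to the left and higher to the right, and dotted lines mark the shares over all 7466 genes kept (32.3% and 19.1%). The replication and S phase lists reach 60% and 61.0% on the right, and the G2/M list reaches 85.2% on the left.

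Among replication genes, *Mcm4*, a subunit of the MCM helicase that opens the double helix (chr16:15623897-15637400), was 156, 357, 441 and 142 FPKM in the 24-month cells and 38.9, 18.0, 0, 0.149 and 0 FPKM in the 1-month cells. Its ages did not overlap, and its difference of 5.98 was the largest of the list. *Pcna*, the sliding clamp that holds the polymerase on DNA, was 1284, 1322, 992 and 748 FPKM at 24 months and 1033, 254, 0.914, 266 and 5.04 FPKM at 1 month (difference 4.13). Every 24-month cell held at least 748 FPKM of *Pcna*, while the 1-month cells ran from near 0 to a level inside the 24-month range. *Rpa2*, part of the complex that coats single-stranded DNA, was 163, 250.2, 348 and 569.6 FPKM at 24 months and 9.73, 205, 0, 149 and 0 FPKM at 1 month (difference 4.57). *Prim1*, the primase that starts each new strand, was 153, 530.2, 0.301 and 236 FPKM at 24 months and 0, 62.4, 27.5, 0.582 and 0 FPKM at 1 month, so 1 of the 24-month cells sat among the young ones. *Cdt1*, which loads the MCM helicase, had a difference of 3.95, and *Chaf1b*, a histone chaperone at the fork, one of 3.89. *Mcm4* was the only replication gene without overlap between the ages (1 of 40, against 0.804% over all genes).

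Not every replication gene went this way. *Rpa3*, the smallest subunit of the complex to which RPA2 belongs, was 0, 0, 41.6 and 3.45 FPKM at 24 months and 149, 8.58, 199.96, 6.15 and 924 FPKM at 1 month (difference -4.27). *Gins1* (-3.75), of the helicase complex, *Dna2* (-2.30) and *Pola1* (-1.45) were also lower by more than 1 unit, and without single cells the last 2 were as near to 0 as -1.41 and -0.86.

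Genes of mitosis lay on the other side. *Cdc20*, the activator that turns on the anaphase-promoting complex (chr4:118432901-118437352), was 5.09, 0.255, 0.725 and 0.709 FPKM at 24 months and 206, 383, 640.3, 509.7 and 367 FPKM at 1 month. The highest 24-month cell lay far below the lowest 1-month cell, and the difference was -7.50. *Kif23*, a motor of the central spindle (chr9:61915905-61946774), was 0.284, 0.662, 2.39 and 0.693 FPKM at 24 months and 92.8, 129.7, 359.5, 569 and 586 FPKM at 1 month (difference -7.18). *Plk1*, the polo-like kinase that drives entry into and passage through mitosis (chr7:122159439-122169873), was 0, 0, 0.412 and 0.201 FPKM at 24 months and 20.1, 129, 161, 179 and 142 FPKM at 1 month (difference -6.49). *Ccnb2*, a B-type cyclin (chr9:70407692-70421547), was 0.739, 0, 16.6 and 0 FPKM at 24 months and 146, 149, 346, 41 and 604 FPKM at 1 month (difference -6.27). None of these 4 genes overlapped between the ages, and 3 of the 4 stayed under 6 FPKM in every 24-month cell.

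Of the 44 mitotic list members, 8 did not overlap between ages, against 1.57% over all genes: *Kif23*, *Plk1*, *Ccnb2*, *Ect2*, *Kif15*, *Cdc27*, *Espl1* and *Mki67*. *Plk1*, *Cdc27* and *Espl1* had no 24-month cell above 1 FPKM, so they were kept through the 1-month cells alone and had to differ, which leaves the other 5. *Mki67*, the proliferation antigen that coats mitotic chromosomes, was 45.4, 20.4, 39.3 and 6.03 FPKM at 24 months and 67.9, 125, 188, 157 and 321 FPKM at 1 month (difference -2.73). It was thus lower but present in all 4 of the 24-month cells. *Cdk1*, the kinase that B-type cyclins activate, was 0, 0.357, 298 and 0 FPKM at 24 months and 275, 1356, 808, 162 and 1269 FPKM at 1 month. Its difference was -7.00, and 24-month cell 3 alone fell inside the 1-month range. *Melk*, a kinase of dividing progenitors, was 7.76, 0, 1.05 and 0 FPKM at 24 months and 44.6, 0.727, 269, 1.69 and 493 FPKM at 1 month, with overlap (difference -3.91).

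In the kinetochore and checkpoint list, *Cdc20*, *Bub1b*, *Bub3* and *Cenpw* did not overlap (4 of 41, against 1.57% over all genes), of which *Cenpw* was kept through the 1-month cells alone. *Bub1b*, the checkpoint kinase BUBR1 that holds back CDC20 until chromosomes are attached (chr2:118598211-118641591), was 56.4, 0, 0 and 0 FPKM at 24 months and 236, 502, 388, 209 and 189 FPKM at 1 month (difference -6.69). It was listed at 0 in 3 of the 4 cells of the older age. *Bub3*, its partner, was lower by less: 60.8, 38.4, 96.4 and 7.60 FPKM at 24 months and 151, 172, 226, 182 and 294 FPKM at 1 month (difference -2.41). *Cenpa*, the histone H3 variant that marks the centromere, was 0, 1.19, 1.94 and 0.509 FPKM at 24 months and 341, 0.507, 1139, 1027 and 927 FPKM at 1 month (difference -6.99). Here 1-month cell 2 alone was as low as the older cells. *Sgo2a*, a protector of cohesion at the centromere, was 106, 0.158, 0.261 and 0.0849 FPKM at 24 months and 25.4 to 430.0 FPKM at 1 month, so that 24-month cell 1 lay inside the range of the young cells. Of the G2/M genes in neither list, *Pimreg*, whose protein is regulated by the anaphase-promoting complex, and *Hmgb2*, a chromatin protein of dividing cells, did not overlap either. *Pimreg* was 1.82, 0.286, 4.53 and 13.2 FPKM at 24 months and 20.1 to 201 FPKM at 1 month (difference -4.56), and *Hmgb2* differed by -1.56.

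**Figure D2:**
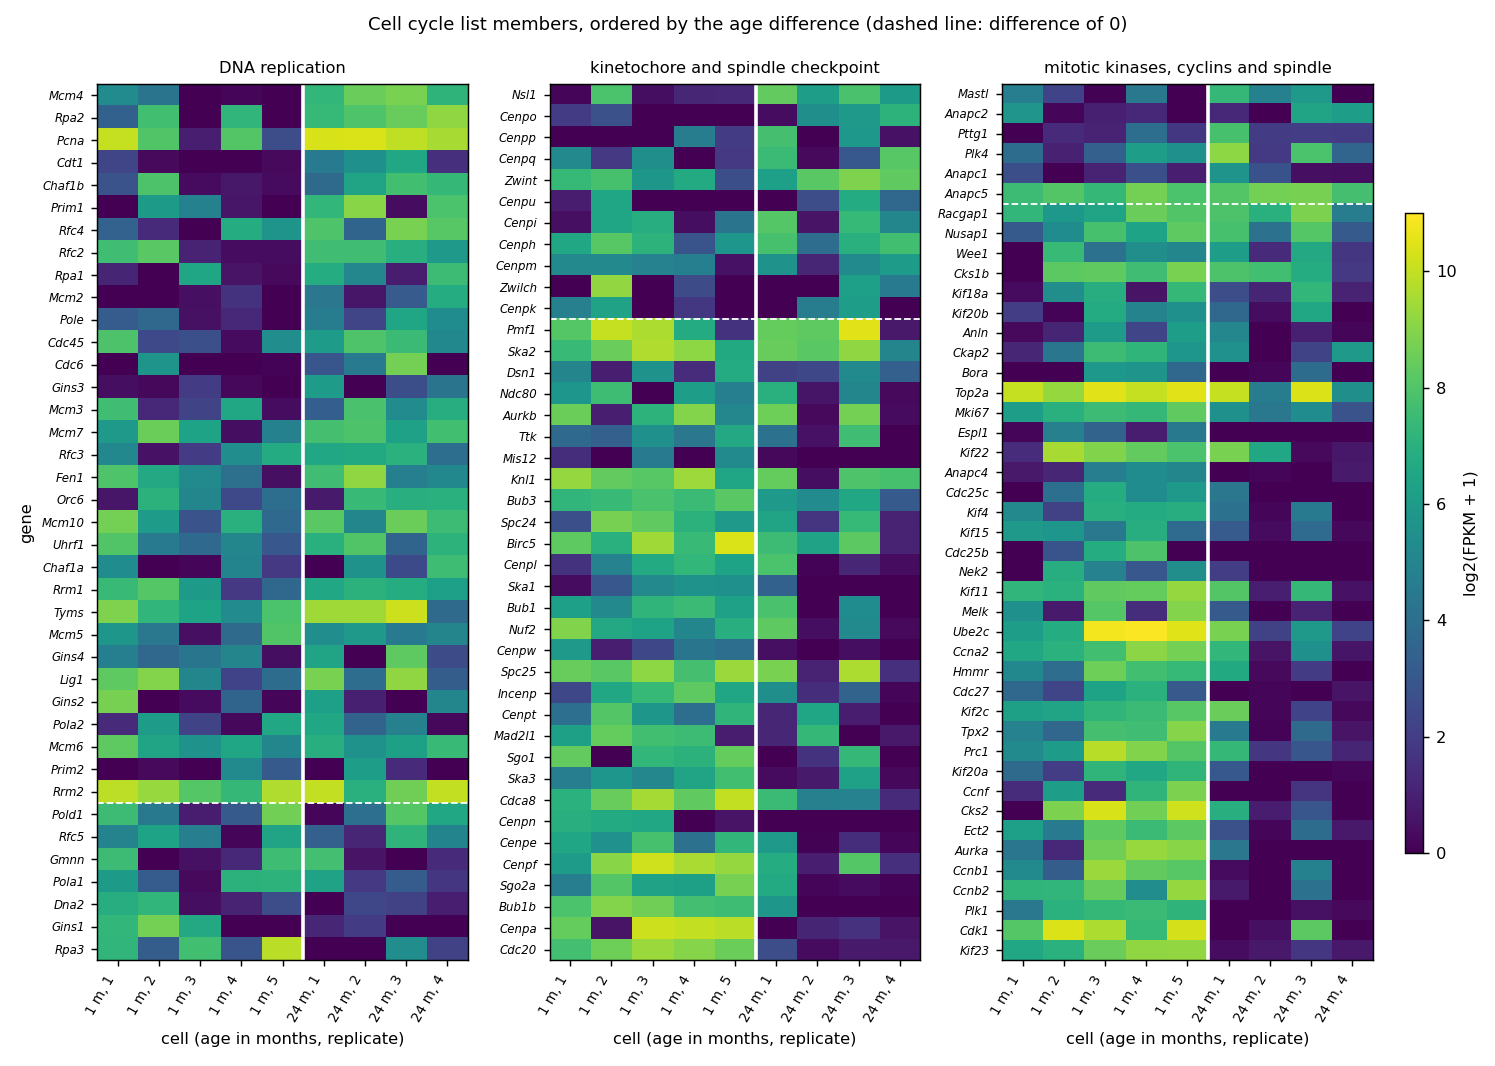
Heat maps of log2(FPKM + 1) for kept members of 3 cell cycle lists (1 replication gene is not drawn), 1 row a gene ordered by the age difference and 1 column a cell, with the 5 cells of 1 month left of the white line and the 4 of 24 months right of it. Most replication genes lie above the dashed line of no difference and most mitotic and kinetochore genes below it, and 24-month cells 2 and 4 are the darkest columns of the mitotic map.

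The cells within an age were not alike. The mean log2(FPKM + 1) of the 41 S phase genes was 5.91, 5.04, 5.39 and 4.96 in the 24-month cells and 5.43, 4.59, 2.77, 3.10 and 3.57 in the 1-month cells. For the 54 G2/M genes it was 5.83, 2.32, 4.75 and 2.13 at 24 months and 5.24, 5.96, 7.86, 7.13 and 7.91 at 1 month. All 4 of the 24-month cells thus had a high S phase level, but they fell into a pair with intermediate G2/M levels (cells 1 and 3) and a pair with low ones (cells 2 and 4). The S phase level minus the G2/M level was 0.09, 2.72, 0.65 and 2.83 at 24 months and 0.20, -1.37, -5.09, -4.03 and -4.34 at 1 month. 1-month cell 1 lay among the older cells on this measure, and 1-month cells 3, 4 and 5 lay furthest from them.

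The number of mitotic list members above 1 FPKM showed the same split, with 33, 15, 32 and 14 of 45 in the 24-month cells and 32, 40, 42, 43 and 40 in the 1-month cells. Their mean log2(FPKM + 1) over the 44 kept was 4.47, 1.51, 3.77 and 1.28 at 24 months and 3.77, 4.68, 6.64, 6.44 and 6.67 at 1 month. 24-month cell 1 was therefore above 1-month cell 1 in its mean mitotic level, although *Cdc20*, *Kif23*, *Plk1* and *Ccnb2* were low in it. For the replication genes the means were 5.33, 5.02, 5.45 and 5.001 at 24 months and 5.33, 4.57, 2.66, 3.14 and 3.27 at 1 month, and again 1-month cell 1 matched the older cells. How cells sampled at different points of the cycle and a difference with age share in these values cannot be told apart with 4 and 5 cells.

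**Figure D3:**
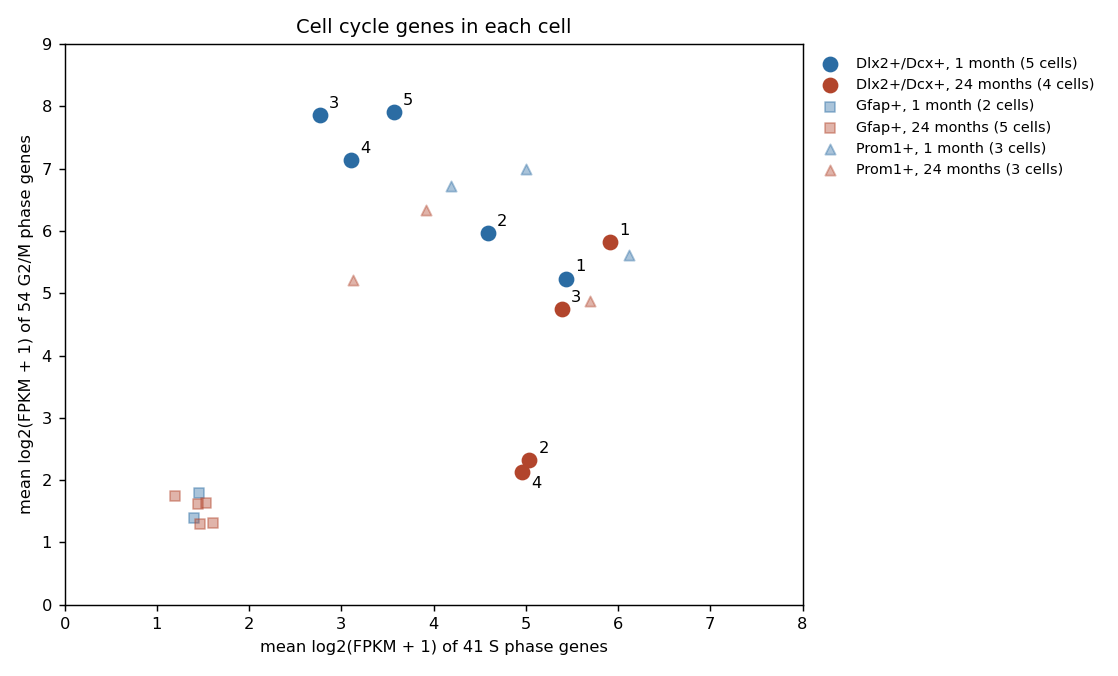
Each point is a cell, placed by its mean log2(FPKM + 1) over 41 S phase genes (horizontal) and 54 G2/M genes (vertical), with numbered circles for the *Dlx2*+/*Dcx*+ cells and pale squares and triangles for *Gfap*+ and *Prom1*+ cells. 1-month cells 3, 4 and 5 sit at upper left with G2/M means of 7.13 to 7.91, 24-month cells 2 and 4 sit low with 2.13 and 2.32, and 24-month cells 1 and 3 lie beside 1-month cell 1.

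The same lists were read in the other cells of the series, with the members kept in the neuroblasts. In *Prom1*+ cells (3 of each age) the median differences, 24 months minus 1 month, were -0.55 for S phase genes and -1.08 for G2/M genes. In *Gfap*+ cells (5 of 24 months and 2 of 1 month) they were 0.18 and -0.0045, and the cells' means stayed between 1.196 and 1.799 for both lists. In the neuroblasts the medians of the 2 phase lists lay more than 1 unit from 0 on opposite sides. Whether the age differences differ between kinds of cell was not tested. *Cdc20* was 19 to 225 FPKM in *Prom1*+ cells of 24 months and 0.347 to 122 FPKM in those of 1 month, so that it was not lower at the older age there (difference 1.8). *Mki67*, *Ccnb2* and *Bub1b* differed by 0.076, 0.11 and 0.33. *Melk* was lower without overlap, at 0.59 to 8.15 FPKM in *Prom1*+ cells of 24 months and 70.2 to 226 FPKM in those of 1 month (-5.14). Other genes named above were lower in *Prom1*+ cells of 24 months as well, with overlap: *Cdk1* (-2.55), *Cenpa* (-1.96), *Kif15* (-1.77), *Plk1* (-1.70) and *Kif23* (-1.56). In *Gfap*+ cells, where they were at most 16.9 FPKM, *Mki67* (-2.04), *Plk1* (-1.35) and *Cenpa* (-2.12) were lower at 24 months without overlap.

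The promoters of a few of these genes are shown because genes of a cell cycle phase are known to share promoter elements. The cell cycle homology region, searched here as TTTGAA, and the CCAAT box, searched as CCAAT, are found in many G2/M genes, and E2F sites, searched as TTTGGCGC, TTTCGCGC or TTTCCCGC, in many S phase genes. Both strands were searched in windows of 250 bases before to 50 bases after each RefSeq transcription start (GRCm38.p6). The windows printed run from 150 bases before the start to 50 after it, 5′ to 3′ on the gene's strand, with matches in capitals. They are those of *Cdc20* (chr4:118437294-118437493, minus strand), *Plk1* (chr7:122159285-122159484, plus strand) and *Ccnb2* (chr9:70421505-70421704, minus strand), which were low at 24 months, and of *Pcna* (chr2:132253131-132253330, minus strand) and *Rpa2* (chr4:132768210-132768409, plus strand), which were high.
Cdc20 promoter: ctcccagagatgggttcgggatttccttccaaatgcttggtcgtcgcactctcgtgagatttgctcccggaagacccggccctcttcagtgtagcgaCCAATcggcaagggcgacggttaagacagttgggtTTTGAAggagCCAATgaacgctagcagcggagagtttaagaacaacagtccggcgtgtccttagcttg
Plk1 promoter: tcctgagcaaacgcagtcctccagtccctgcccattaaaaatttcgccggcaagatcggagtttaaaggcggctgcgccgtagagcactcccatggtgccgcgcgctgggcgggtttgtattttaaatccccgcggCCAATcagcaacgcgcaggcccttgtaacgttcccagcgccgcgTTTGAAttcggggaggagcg
Ccnb2 promoter: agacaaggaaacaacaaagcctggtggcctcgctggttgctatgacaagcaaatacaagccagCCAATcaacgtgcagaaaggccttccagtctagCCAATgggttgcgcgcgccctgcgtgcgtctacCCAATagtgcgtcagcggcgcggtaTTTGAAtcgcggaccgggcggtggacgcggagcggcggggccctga
Pcna promoter: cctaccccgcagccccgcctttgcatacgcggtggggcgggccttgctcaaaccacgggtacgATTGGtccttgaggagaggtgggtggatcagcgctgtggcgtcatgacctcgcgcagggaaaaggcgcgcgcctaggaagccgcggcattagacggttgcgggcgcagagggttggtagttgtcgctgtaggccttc
Rpa2 promoter: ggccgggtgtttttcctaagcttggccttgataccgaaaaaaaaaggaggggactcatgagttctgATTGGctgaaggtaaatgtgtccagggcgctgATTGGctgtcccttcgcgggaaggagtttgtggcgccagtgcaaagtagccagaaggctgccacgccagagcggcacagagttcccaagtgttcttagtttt

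The 3 mitotic windows each hold 1 TTTGAA, with 2, 1 and 3 CCAAT boxes for *Cdc20*, *Plk1* and *Ccnb2*. The *Pcna* and *Rpa2* windows hold CCAAT boxes, read as ATTGG on the printed strand, and no TTTGAA, and none of the 5 windows holds a searched E2F site. Among 14 windows of the 12 mitotic and kinetochore genes whose ages did not overlap, 13 held TTTGAA (92.9%) and 13 held CCAAT (92.9%), where 17.9% and 37.4% of all 32851 promoters did. *Cdc27* lacked the first and *Kif15* the second. Without *Plk1*, *Cdc27*, *Espl1* and *Cenpw*, which were kept through the 1-month cells alone, 10 of 10 windows held TTTGAA and 9 held CCAAT. Among 36 windows of 31 DNA replication genes, TTTGAA was in 11.1%, CCAAT in 61.1% and an E2F site in 33.3%. Among 40 windows of the whole mitotic list TTTGAA was in 62.5%, CCAAT in 70% and an E2F site in 7.5%, and of 39 windows of the kinetochore list 16 held TTTGAA, 29 CCAAT (74.4%) and 3 an E2F site (7.69%). An E2F site was in 1.84% of all promoters. These lists hold kept genes alone, and over the 7012 windows of all genes kept the shares were 12.9% for TTTGAA, 39.2% for CCAAT and 4.22% for an E2F site.

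Genes outside the 5 cell cycle lists were also split by these letters. Those lists do not hold every cell cycle gene (G1 cyclins had a list of their own), so genes outside them can still be cell cycle genes. Of 337 kept genes with both TTTGAA and CCAAT in a window, 40.1% were lower at 24 months by more than 1 unit and 16.6% higher, and of 5011 without both, 32.7% were lower and 18.9% higher. A match is a description of the letters and not a binding site, and the motifs were chosen with the age differences known.

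The genes with the largest differences and no overlap reached beyond the cell cycle lists. At the top of those lower at 24 months stood *Sephs1*, a selenophosphate synthetase homologue (chr2:4881564-4910557), at 0.362, 0.986, 0.151 and 0.0786 FPKM in the 24-month cells and 218, 523, 454, 135 and 255 FPKM in the 1-month cells (difference -7.71). No 24-month cell reached 1 FPKM of it, so it was kept through the 1-month cells alone and had to differ. *Psat1*, an aminotransferase of serine synthesis, was 0.361, 0, 1.37 and 0.294 FPKM at 24 months and 223, 24.5, 186, 452 and 337 FPKM at 1 month (difference -6.93). *Kpna2*, an importin alpha that carries proteins into the nucleus, was 18.7, 0.822, 2.45 and 7.11 FPKM at 24 months and 65.1, 738, 1251, 909 and 647 FPKM at 1 month (difference -6.51), and it was lower without overlap in *Prom1*+ cells too (-4.78). *BC005624*, a gene with no settled function, was listed at 0 in 3 of the 24-month cells and at 1.32 FPKM in the other, against 17.3 to 233 FPKM at 1 month (difference -5.77). *Cdc20*, *Kif23*, *Bub1b*, *Plk1*, *Ccnb2* and *Slc1a3* complete the 10 largest.

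At the other end, *Pask*, a kinase with a PAS domain (chr1:93308770-93343482), was 273, 40.6, 323 and 241 FPKM at 24 months and 0.821, 0.175, 0, 0.0643 and 0.174 FPKM at 1 month. It stayed below 1 FPKM in every young cell, so it was kept through the 24-month cells alone and had to differ. Its difference of 7.15 was the largest of the genes that were higher without overlap. *Trappc1*, a subunit of a vesicle tethering complex, was 164, 31.5, 67.2 and 515 FPKM at 24 months and 0, 0, 0, 8.04 and 1.87 FPKM at 1 month (difference 5.93). *Rab8a*, a small GTPase of membrane traffic, was 125, 381, 382 and 221 FPKM at 24 months and 1.09, 1.04, 99.0, 1.24 and 6.48 FPKM at 1 month (difference 5.42). *Vps51*, a subunit of another tethering complex, had a difference of 4.80. *Cttnbp2*, a neuronal partner of cortactin, was 181, 47.3, 57.8 and 226 FPKM at 24 months and 6.79, 0, 2.27, 0.178 and 0 FPKM at 1 month (difference 5.72). *Acad9* (5.39), a mitochondrial assembly factor of complex I, *Zfp948* (5.16), a zinc finger gene, *Uspl1* (5.12), a SUMO protease, and *Qpctl* (4.72), a Golgi glutaminyl cyclase, were the others beside *Mcm4*. Like *Pask*, *Qpctl* was kept through the 24-month cells alone. In *Gfap*+ cells *Acad9* and *Zfp948* lay the other way, at -3.54 and -4.34. In *Prom1*+ cells *Acad9* lay the same way as in neuroblasts, with every 24-month cell above every 1-month cell (2.06), and *Zfp948* overlapped (-0.66).

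**Figure D4:**
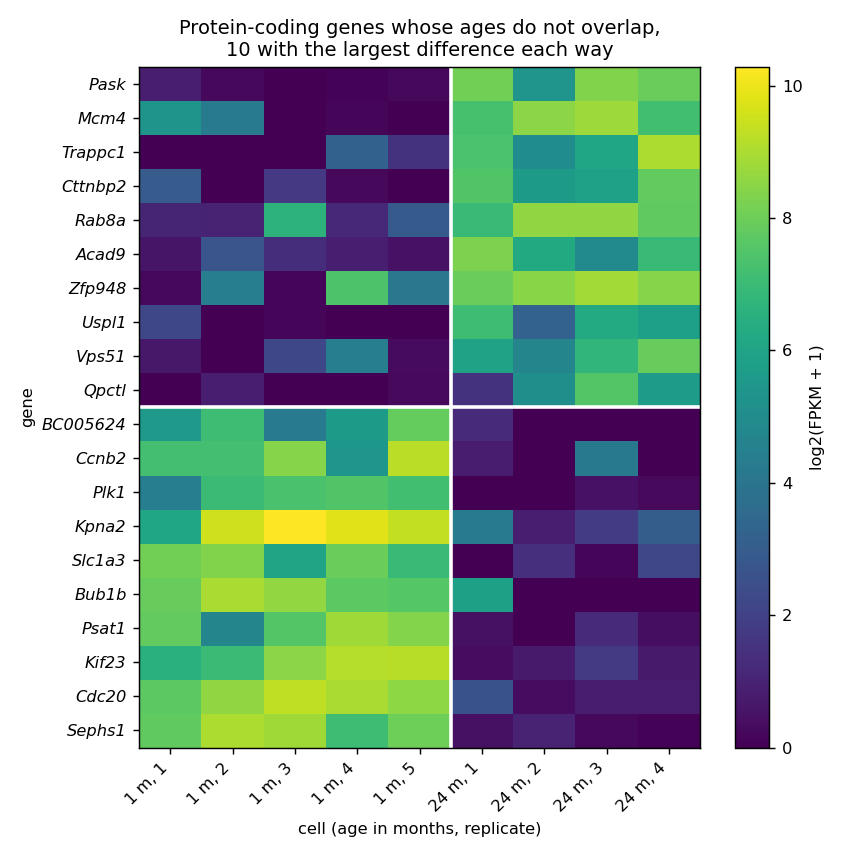
Heat map of log2(FPKM + 1) for the 20 protein-coding genes with the largest differences among those whose ages did not overlap, 10 higher at 24 months above the white line and 10 lower below it, with the 1-month cells left and the 24-month cells right. *Pask* is near 0 in all 5 cells of 1 month, and *Sephs1* is near 0 in all 4 cells of 24 months. Each of these genes was kept through the other age alone and had to differ.

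Of the 60 genes that were higher without overlap, 48 were protein-coding and 17 had every 1-month cell at or below 1 FPKM. Of the 117 that were lower, 109 were protein-coding and 48 had every 24-month cell at or below 1 FPKM. Of the 41 genes described here whose ages did not overlap, 37 still did not after TPM scaling, scaling without mitochondrial genes and quantile normalization. The exceptions were *Kif15* in all 3 scalings, *Ect2* and *Calm2* after quantile normalization, and *H2-T23* without mitochondrial genes. Over all genes fewer remained: in these scalings, in the same order, 55, 51 and 59 of the 60 that were higher and 107, 107 and 75 of the 117 that were lower.

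Among genes of neuroblast identity both shares were below the background. Of 24 kept, 2 (8.33%, against 19.1%) were higher and 5 (20.8%, against 32.3%) lower at 24 months by more than 1 unit, none without overlap, with a median of -0.16. *Cd24a*, a surface protein of neuroblasts, was 59.5 to 1212 FPKM at 24 months and 243 to 735 FPKM at 1 month. *Sp8*, a transcription factor that acts with SP9, was 139, 22.5, 379 and 0.564 FPKM at 24 months and 452, 201, 432, 593 and 389 FPKM at 1 month (difference -3.39). *Dlx6* lay the other way at 116, 20.3, 75.1 and 227 FPKM against 0.373, 0.199, 0.151, 251 and 50.6 FPKM (difference 3.42). Both overlapped between ages, and without 24-month cell 4 the *Sp8* difference was -1.86. *Pbx3*, the other listed gene, was not kept.

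Of 11 kept genes of stem cells and transit amplifying cells, the stages before the neuroblast, 6 (54.5%) were lower and 2 (18.2%) higher, with a median of -1.01 that ranged from -1.55 to -0.66 when 1 cell was left out. *Slc1a3*, the glutamate transporter GLAST of radial glia and astrocytes (chr15:8634124-8710764), was 0, 1.69, 0.104 and 3.56 FPKM at 24 months and 271, 321, 63.3, 252 and 125 FPKM at 1 month (difference -6.54). *Pax6*, a transcription factor of neurogenic progenitors (chr2:105668900-105697364), was 2.77, 1.68, 2.24 and 1.13 FPKM at 24 months and 28.5, 594, 114, 109 and 89.3 FPKM at 1 month (difference -5.31). Neither overlapped, and they were the only 2 of the list that did not. *Egfr*, the growth factor receptor of activated progenitors, lay the other way: 93.5, 20.5, 0.124 and 368 FPKM at 24 months and 1.87, 0.199, 2.48, 0.573 and 1.64 FPKM at 1 month (difference 3.79). 24-month cell 3 was the exception to its higher level. *Sox2* (5.04 to 197 against 0.361 to 222 FPKM) and *Nes* (at most 27.9 and 19.4 FPKM, and under 1 FPKM in 7 of the 9 cells) overlapped.

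**Figure D5:**
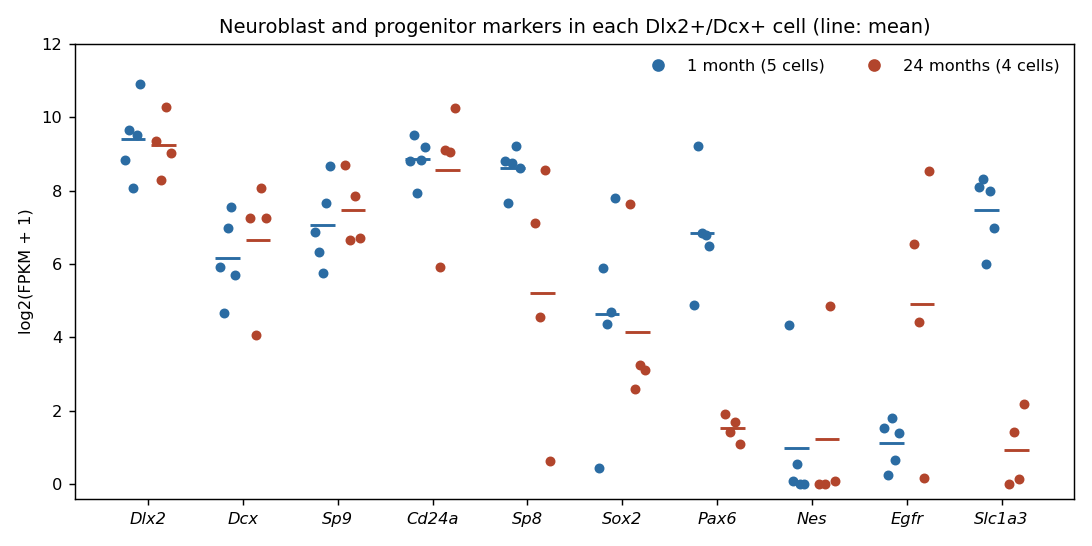
Values of log2(FPKM + 1) of 10 neuroblast and progenitor genes in each cell, 5 of 1 month in blue and 4 of 24 months in red, with the mean of each age as a line. *Dlx2*, *Dcx* and *Sp9* overlap between ages, while all 24-month cells lie below all 1-month cells for *Pax6* and *Slc1a3*.

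*Slc1a3* also marks astrocytes, so other astrocyte genes were read beside it. The summed FPKM of 10 astrocyte markers was 2.13 to 22 at 24 months and 46.6 to 634 at 1 month. The largest values at 1 month were those of *Slc1a2* (473 FPKM, at most 12.9 at 24 months) and *Aldoc* (166 FPKM, at most 0.821 at 24 months), and at 24 months that of *Fgfr3* (21.9 FPKM). *Aqp4* and *Agt* were listed at 0 in all 9 cells and *Gfap* was at most 0.332 FPKM. Between 0 and 2 of the 10 were above 1 FPKM in a 24-month cell and between 2 and 4 in a 1-month cell. Their part in the *Slc1a3* difference was not tested.

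Markers of the remaining cell types were scattered. The sum of 11 oligodendrocyte markers was 31.5 to 254 FPKM at 24 months and 81.5 to 325 at 1 month, with 4 to 6 and 4 to 8 markers above 1 FPKM and *Sox10* at most 0.307 FPKM. For 12 microglial markers it was 0.485 to 108 and 0.426 to 186 FPKM, with 0 to 2 above 1 FPKM at either age and *C1qa*, *Csf1r* and *P2ry12* listed at 0 throughout. Single cells held single genes of such lists at a high level, among them *Trem2* at 184 FPKM in 1-month cell 4, *C1qc* at 106 FPKM in 24-month cell 4, and *Olig1* at 119.9 and *Mobp* at 213 FPKM in 24-month cell 3. Ependymal markers summed to at most 0.451 FPKM and endothelial ones to at most 0.184 FPKM. Of the mature neuron list *Snap25* was at 0 to 117 FPKM at 24 months and 2.96 to 155 FPKM at 1 month, and *Rbfox3* was listed at 0 in all cells. Striatal *Penk* and *Tac1* were listed at 0 at 24 months and were present in few 1-month cells, *Penk* at 144 and 99.7 FPKM in cells 1 and 2 and *Tac1* at 111 FPKM in cell 3.

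Genes that brake the cycle were mixed. Of 17 kept p53 and arrest genes, 8 (47.1%) were lower and 5 (29.4%) higher, with a median of -0.89 that ranged from -1.77 to -0.11 when 1 cell was left out. *Gadd45g*, a stress gene whose product can inhibit CDK1, was 0, 12.9, 0 and 0.464 FPKM at 24 months and 283, 187, 9.48, 78.5 and 248 FPKM at 1 month (difference -5.59). *Cdkn2c*, an inhibitor of CDK4 and CDK6, had a difference of -4.30, and *Sesn1*, a p53 target, was lower without overlap (-2.71) but was kept through the 1-month cells alone. *Plk2*, a polo-like kinase induced by p53, was 15.8, 0, 97.1 and 142 FPKM at 24 months and listed at 0 in all 5 cells of 1 month, so it was kept through the 24-month cells alone. *Btg1*, an antiproliferative gene, was 85.9, 119, 144 and 100.2 FPKM at 24 months and 3.67, 34.0, 0.0634, 9.24 and 136 FPKM at 1 month (difference 3.22). *Mdm2* (2.99) and *Bax* (2.93), both p53 targets, were also higher, and *Trp53* itself differed by 0.20, a value that ran from -1.05 without 1-month cell 5 to 2.12 without 24-month cell 1. Of 22 genes for G1 cyclins and E2F factors, 6 (27.3%) were higher and 2 (9.09%) lower. *Mycn*, which drives progenitor growth, was at most 0.178 FPKM at 24 months and 0, 0.173, 26.0, 48.8 and 156 FPKM at 1 month, and it was kept through the latter alone.

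Of 22 telomere maintenance genes, 10 (45.5%) were lower and 5 (22.7%) higher, with a median of -0.66 (-1.15 to -0.23 when 1 cell was left out). *Pif1*, a helicase, was 0, 2.24, 0.133 and 0 FPKM at 24 months and 15.8, 25.6, 173, 122 and 40.3 FPKM at 1 month (difference -5.24), without overlap. *Terf2ip* and *Smg6*, both proteins that act at telomeres, were listed at 0 in all 4 of the 24-month cells, so they were kept through the 1-month cells alone and had to differ. At 1 month *Terf2ip* was 0.234 to 24.6 FPKM and *Smg6* was 1.27 to 39.6 FPKM. Of 29 DNA repair genes, 10 (34.5%) were lower and 6 (20.7%) higher, which is near the background, and *Fancd2*, of the crosslink repair pathway, was listed at 0 in all 24-month cells against 0.0876 to 21.1 FPKM at 1 month, the age through which alone it was kept.

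In the ERK pathway, which carries growth factor signals to the nucleus, 8 of 21 kept genes (38.1%) were lower and 7 (33.3%) higher. *Mapk3*, the kinase ERK1, was 35.5, 0.352, 8.6 and 73.4 FPKM at 24 months and 0, 21.2, 0, 39.0 and 0 FPKM at 1 month, a difference of 1.82 with wide overlap. Leaving out single cells moved the *Mapk3* difference from 2.93 (without 24-month cell 2) to 1.0 (without 24-month cell 4).

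Housekeeping programmes were mixed. Of 82 cytosolic ribosome genes, 10 (12.2%) were higher and 6 (7.32%) lower, both shares below the background. Of 85 nuclear genes of the respiratory chain, 33 (38.8%) were lower and 10 (11.8%) higher. *Ndufa1*, of complex I, was 4.59, 59.2, 3.83 and 136 FPKM at 24 months and 466, 352, 272, 163 and 189 FPKM at 1 month (difference -3.63), and *Cox5b*, of complex IV, differed by -1.76, both without overlap. *Ndufa9*, also of complex I, had the largest difference of that list (-5.13), with overlap, and was kept through the 1-month cells alone. The 12 kept protein-coding genes of the mitochondrial genome had 1 higher and 1 lower. Of 35 proteasome genes, 17 (48.6%) were lower and 4 (11.4%) higher, with *Psmd8*, of the regulatory cap, at 0.378, 0.858, 0 and 0.307 FPKM against 8.2 to 132 FPKM (difference -4.89). *Psmd8* too was kept through the 1-month cells alone and had to differ.

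Lists of signalling and migration differed in how many of their genes were kept. Of 21 GABA genes 8 were kept, of which 3 were higher and 1 lower. *Gabbr1*, a subunit of the metabotropic receptor, was 30.1, 20, 18.1 and 155 FPKM at 24 months and 1.22, 0, 29.4, 15.7 and 1.42 FPKM at 1 month, with overlap (difference 2.94). Of 17 kept calcium genes, 9 (52.9%) were lower and 3 (17.6%) higher, and *Calm2*, a calmodulin gene with near copies, was 465, 93.1, 755 and 355 FPKM against 857 to 3267 FPKM (difference -2.09). *Cacna2d1*, a calcium channel subunit, was 0, 24.97, 2.57 and 189 FPKM at 24 months and at most 0.0495 FPKM at 1 month, and it was kept through the 24-month cells alone. Of 41 migration and guidance genes 27 were kept, of which 10 (37.0%) were lower and 3 (11.1%) higher, and of 18 Notch, Wnt, Hedgehog and BMP genes 5 (27.8%) and 2 (11.1%). Of 23 autophagy genes, 10 (43.5%) were lower and 5 (21.7%) higher.

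Immediate early genes, which cell dissociation can induce, had 4 of 11 (36.4%) higher and 2 (18.2%) lower. *Jund* was 114, 162, 217 and 244 FPKM at 24 months and 42.9, 47.2, 2.02, 93.3 and 82.4 FPKM at 1 month (difference 2.36), without overlap, and *Jun* had a difference of 1.99 with overlap. Without 1-month cell 3 these were 1.48 and 0.76. Of 28 MHC class I and interferon genes only 5 were kept, and *H2-T23*, a nonclassical class I gene with near copies, was 60.4, 2.36, 1.95 and 1.59 FPKM at 24 months against at most 1.23 FPKM at 1 month, so that its difference of 2.27 was 1.17 without 24-month cell 1.

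Whole subventricular tissue was also sequenced, from mice of 18 months and of 3 weeks (3 samples each), ages that differ from those of the cells. In bulk tissue, fewer cells of a type and less RNA per cell cannot be told apart. With limma on log2(FPKM + 1), 308 of 12287 genes (2.51%) were higher and 297 (2.42%) lower at 18 months at an adjusted p under 0.05. The neuroblast genes *Dlx2* (log2 fold change -1.71, SE 0.18, limma adjusted p = 0.011) and *Dcx* (-0.96, SE 0.15, limma adjusted p = 0.0268) fell, where the single cells gave differences of -0.16 and 0.50. The cells were typed as positive for both genes, so a loss of either could not show among them. Leaving out 1 cell moved the single-cell differences from -0.50 (without 24-month cell 3) to 0.22 (without 1-month cell 5) for *Dlx2* and from 0.03 (without 24-month cell 3) to 1.36 (without 24-month cell 2) for *Dcx*. Of the 21 neuroblast identity genes tested, *Dlx1* and *Tubb3* were the only others called. These 4 calls became 1 without sample 3 of 3 weeks, 2 without sample 1 or 2 of 3 weeks or sample 2 or 3 of 18 months, and stayed 4 without sample 1 of 18 months.

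In the tissue 14 of 29 mitotic genes fell (median -0.96), and so did 10 of 25 kinetochore genes (median -0.69) and 9 of 27 replication genes (median -0.52), and none of the 3 lists had a gene that rose. *Cdc20* (-1.20, SE 0.15, limma adjusted p = 0.017), *Plk1* (-1.25, SE 0.12, limma adjusted p = 0.00814), *Bub1b* (-1.18, SE 0.19, limma adjusted p = 0.0327) and *Pax6* (-0.84, SE 0.14, limma adjusted p = 0.0333) were lower in both the tissue and the cells. The replication list was thus on the lower side in the tissue and on the higher side in the single cells. *Pcna* was at -0.29 in the tissue (limma adjusted p = 0.182), and *Mcm4* was not analysed there. *H2-T23* was higher in the tissue too (1.49, SE 0.15, limma adjusted p = 0.00987). The counts of calls in the tissue changed by more than 1.5 times without single samples. Leaving out sample 2 of 18 months gave 31 higher and 108 lower, leaving out sample 3 gave 47 and 139, and leaving out any sample of 3 weeks gave 51 to 85 higher and 43 to 65 lower. Without 1 sample the genes that fell numbered 4 to 11 of the mitotic list, 1 to 6 of the kinetochore list and 0 to 7 of the replication list. The replication list had 1 call without sample 2 of 18 months, 4 without sample 3, and 0, 1 and 0 without samples 1, 2 and 3 of 3 weeks.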

How the data were processed

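The deposited values are FPKM, 1 column a cell, which the authors computed from paired-end Smart-seq2 libraries. The submitters' processing notes name HISAT2, StringTie, featureCounts and GRCm38, without versions here. Smart-seq2 libraries keep no strand, so overlapping genes cannot be told apart, and genes with near copies (*H2-T23*, *Calm2*) are uncertain. No counts were used. Depth was estimated as the reciprocal of the lowest FPKM steps of genes with 1 transcript of at least 1500 bases. Gene identifiers were matched to GENCODE M21 (86.7% matched). Coordinates come from that annotation, since the loci listed in the file overlapped GRCm38 for only 12.8% of matched identifiers.

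Genes above 1 FPKM in 3 or more of the 9 cells were compared as means of log2(FPKM + 1), with no test, because FPKM with a pseudocount of 1 understates changes of low genes and the cells of an age are 1 sample. The tissue samples, whose labels do not say whether they came from separate animals, were tested with limma 3.58.1 in R 4.3.3 on log2(FPKM + 1) with Benjamini-Hochberg adjustment, over genes at 1 FPKM or more in 3 or more of 6 samples, and these p-values measure only the spread between samples. Cell cycle phase lists are those of Seurat 5.3.0 in mouse spelling. Python 3.11.15, numpy 2.4.6, pandas 2.3.3, scipy 1.17.1 and matplotlib 3.10.9 were used, and the comparisons were tested on simulated data. Promoter windows are from RefSeq (GRCm38.p6).

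The gene lists were written by hand from general knowledge, and members, lists and tests were chosen with earlier results of these data known. Named genes are the markers, genes the paper names for these cells, the 10 protein-coding genes with the largest difference in each direction without overlap, members of a list without overlap or with its up to 4 largest differences, the most abundant genes, and markers of other cell types above 10 FPKM in any cell. *Cdt1*, *Gins1*, *Dna2*, *Pola1*, *Mdm2*, *Bax*, *Trp53*, *Dlx1*, *Tubb3*, *Pbx3*, *Tsix* and *Uty*, and the markers *Aqp4*, *Agt*, *Gfap*, *Sox10*, *C1qa*, *Csf1r*, *P2ry12* and *Rbfox3*, fall outside this rule and were named after their values were seen. Alternatives were a pseudocount of 0.1, no filter or a stricter one, TPM scaling, scaling without mitochondrial genes, quantile normalization, medians, the replicate block in the tissue, and each cell or sample left out. Some genes that the rule names are not reported here.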

Additional observations from a re-analysis of the deposited data

Results flagged for a closer look

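Each age group of 76 genes compared above, of 25 list means and of 15 marker and sex-linked genes was checked for a cell standing apart, by the gap between the highest or lowest cell and its nearest neighbour, divided by the range of log2(FPKM + 1) in the group. Of 232 groups checked, 33 passed the limit of Dixon's test at the 95% level, and chance alone passes about 5%.

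Among the 24-month cells, cell 1 stood above the others in *Sox2* (0.868), *Bub1b* (1.00), *Sgo2a* (0.967), *BC005624* (1.00) and *H2-T23* (0.917), and below them in *Trp53* (0.843). Cell 2 was the highest in *Gadd45g* (0.855) and *Pif1* (0.894) and the lowest in *Pask* (0.859) and *Ndufa9* (0.840). Cell 3 was the highest in *Nes* (0.980), *Cdk1* (0.946) and *Sesn1* (1.00). A ratio of 1.00 means that the other cells were all listed at 0. Cell 2 was also the lowest in the mean of the G1 cyclin and E2F list (0.892).

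Among the 1-month cells, cell 1 was the highest in *Nes* (0.871), *Pask* (0.731), *Uspl1* (0.926) and *Cdt1* (0.885) and the lowest in *Plk1* (0.850) and *Kpna2* (0.776). This is the 1-month cell that lay beside the older cells on the phase lists. Cell 2 was the lowest in *Cenpa* (0.819), cell 3 the lowest in *Jund* (0.778), and cell 4 the highest in *Cacna2d1* (1.00), at 0.0495 FPKM where the others were listed at 0. Cell 2 was the lowest in the mean of the telomere list (0.861).

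The markers of other cell types that were checked, apart from *Sox10* and *Gfap*, were named for being above 10 FPKM in a cell, so that single high cells are part of their choice. At 24 months cell 3 was the highest in *Aldoc* (1.00) and *Olig1* (0.953), and cell 4 in *C1qc* (1.00). At 1 month cell 4 was the highest in *Sox10* (1.00, at 0.307 FPKM), *Olig1* (1.00), *Mobp* (0.843) and *Trem2* (1.00), cell 3 in *Tac1* (1.00), and cell 2 the lowest in *Snap25* (0.877).

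For 3 genes every cell of an age lay on one side in neuroblasts and on the opposite side in *Gfap*+ cells. The age difference in neuroblasts minus that in *Gfap*+ cells was 8.93 for *Acad9*, 9.5 for *Zfp948* and -4.07 for *Cox5b*, and these differences were not tested.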

How the results depend on the processing

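The medians of the 5 cell cycle lists kept their direction, and moved by less than the spread between cells, in each of the 16 alternatives run. They ranged from 0.97 to 1.84 for S phase, 1.31 to 2.25 for DNA replication, -3.87 to -2.60 for G2/M, -3.18 to -2.08 for the kinetochore and -4.68 to -2.94 for mitosis. Genes higher by more than 1 unit numbered 2179 with no filter and 897 with the stricter filter, which left 1535 lower, since these settings change how many genes enter. Quantile normalization gave 125 genes higher and 79 lower without overlap, against 60 and 117. Leaving out 1 cell gave 86 to 135 genes higher and 163 to 215 lower without overlap, as fewer cells have to be separated. Of 1064 alternative values for 76 genes, 28 moved beyond the spread between cells, most with a pseudocount of 0.1, and of 318 values for the 20 other lists, 28 did. None of these turned a difference beyond that spread, although the medians of 9 lists changed sign in at least 1 alternative: neuroblast identity, oligodendrocyte, DNA repair, ERK, Notch, GABA, class I, cytosolic ribosome and mitochondrial genome genes. The class I median, of 5 genes, was -0.75 and ran from -1.09 to 1.49 when 1 cell was left out. At this depth, and with 4 and 5 cells, a gene listed at 0 was not shown to be absent.

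In the tissue no filter on low values gave 201 genes higher, and leaving out 1 sample gave 31 to 309 higher and 43 to 304 lower. With the replicate number as a block, 4 genes were higher and 13 lower, and none of the genes called in the cell cycle and neuroblast lists remained. Deviations of samples with the same number correlated at -0.10, -0.01 and -0.10, so the numbers do not pair the samples. The cells were not paired.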
